A study of Mus musculus with 5 samples.

Results

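The genes described here are 10 transporters of neutral and acidic amino acids from the SLC1, SLC6 and SLC38 families, measured by RNA sequencing of interscapular brown adipose tissue (BAT) from mice lacking the transcription factor ATF4 in thermogenic adipocytes. They are Slc1a3, Slc1a4, Slc1a5, Slc6a6, Slc6a9, Slc38a1, Slc38a2, Slc38a3, Slc38a4 and Slc38a10. They were chosen by name, with earlier results of these data known, so counts among them are descriptions. All 10 were among the 16450 genes tested, of 52022 genes to which the counted transcripts belong. ATF4 BKO mice (labelled KO) carried Atf4 fl/fl and Cre recombinase under the Ucp1 promoter, the transgene Tg(Ucp1-cre)1Evdr. The promoter is active in thermogenic adipocytes, and the other cells of the tissue keep Atf4. WT mice were Atf4 fl/fl littermates without Cre, so both groups carried the floxed gene, and the WT mice control for the floxed alleles but not for the transgene. All mice were on a C57Bl/6J background, were labelled male, were 10 to 12 weeks old, and were killed after 3 days at 4 °C. There were 3 ATF4 BKO mice and 2 WT mice, with 1 library per mouse.

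Amino acids do not cross cell membranes on their own, and the SLC1, SLC6 and SLC38 families bring many of them in by coupling their movement to the sodium gradient. SLC1 members carry glutamate and aspartate or exchange small neutral amino acids and glutamine. SLC6 members use sodium and chloride to import substrates such as glycine and taurine. SLC38 members include the system A and system N carriers of glutamine, alanine and other small neutral amino acids. ATF4 is the transcription factor through which cells short of amino acids or under stress raise the genes of amino acid uptake and synthesis. It binds C/EBP-ATF response elements, whose core reads TGATGNAA.

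Of the 10 transporters, the glycine transporter gene Slc6a9 had the greatest distance between genotypes on the log2 scale. It had 1.63, 3.06 and 2.32 CPM (counts scaled to library size, with TMM factors) in ATF4 BKO replicates 1, 2 and 3. WT replicates 1 and 2 had 28.99 and 7.91. Every ATF4 BKO mouse lay below both WT mice for 4 transporters, Slc6a9, Slc1a4, Slc38a2 and Slc38a3, against 10.6% of all genes tested. For 0 transporters did every ATF4 BKO mouse lie above both WT mice, against 8.95% of all genes. The other 6 overlapped between genotypes. With 2 WT mice, the smallest p that an exact permutation test of 1 gene can give is 0.1 (1 of 10 splits of the mice), so values that do not overlap cannot pass a threshold of 0.05 that way.

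**Figure D1:**
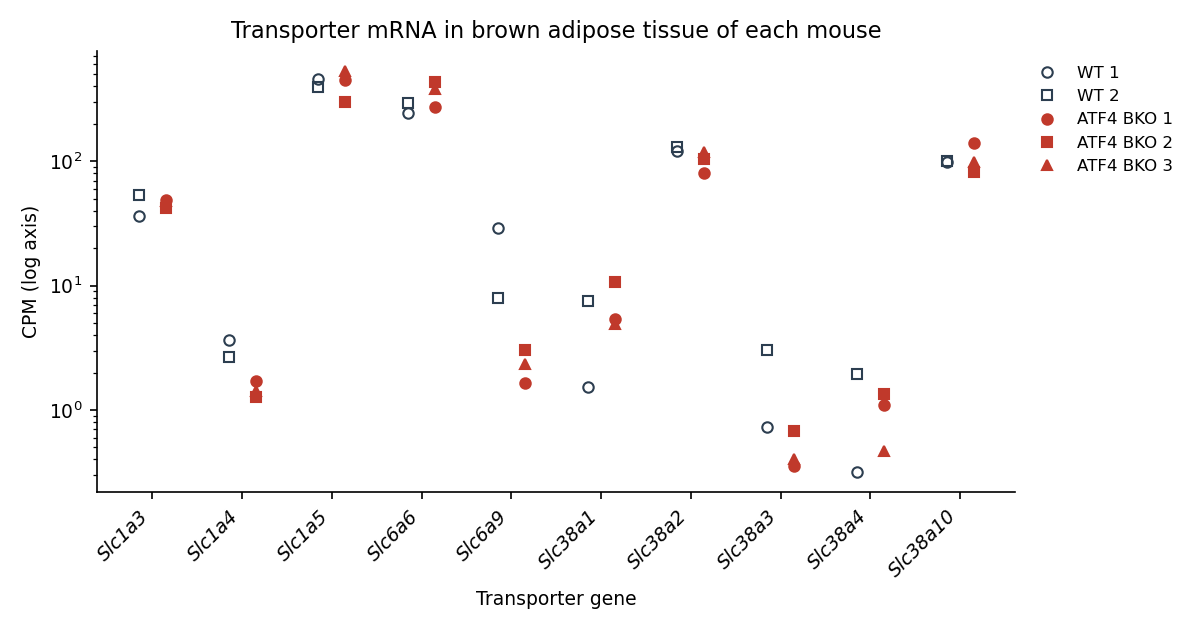
CPM (log axis) of each transporter gene in each mouse, with WT replicates as open symbols and ATF4 BKO replicates as filled symbols. Slc6a9 lies between 1.63 and 3.06 in the ATF4 BKO mice and at 7.91 or above in the WT mice. Slc1a5, with the highest mean CPM in each genotype over all its transcripts, overlaps between genotypes.

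Some features of the libraries bear on these results. The deleted gene, Atf4 (chr15:80255184-80257541 in GRCm38), had 32.6, 52.6 and 23.5 CPM in the ATF4 BKO mice against 286 and 226 in the WT mice, and its log2 fold change was -2.82 (SE 0.34). DESeq2 called it and edgeR did not (adjusted p = 0.671). ATF4 BKO replicate 1, labelled male, had 4598 counts of Xist, the RNA of the inactive X chromosome, against at most 7 in the others. WT replicate 2 had 2571 CPM summed over 20 skeletal muscle markers, against 139.9 in WT replicate 1 and 40.4 to 56.4 in ATF4 BKO mice. Of the 20 markers, 19 lay lower in every ATF4 BKO mouse, against 10.6% of all genes. DESeq2 called 9 of the 20, against 0.608% of all genes lower and 0.128% higher. WT replicate 1 had the least macrophage RNA, with 174 CPM summed over 8 markers, against 1029 in WT replicate 2 and 461 to 1241 in ATF4 BKO mice. WT replicate 1 also had the most erythroid RNA, with 2779 CPM summed over 4 markers, against 1429 in WT replicate 2 and 1137 to 1659 in ATF4 BKO mice. No marker of these lists was at 0 in every mouse. The 12 brown adipocyte markers summed to 20362 to 27011 CPM in all 5 mice, and Ucp1 had 274275 to 388388 counts. The names of the libraries begin with 1 of 2 prefixes that the sources do not explain. One is shared by WT replicate 1 and ATF4 BKO replicates 1 and 2, the other by WT replicate 2 and ATF4 BKO replicate 3. Library totals were 24698337 to 32452751 estimated counts. The share of counts on mitochondrial genes was 18.5% to 22.0% in ATF4 BKO mice, above the 15.6% and 15.1% of the WT mice, and its part in the results was not tested. In bulk tissue, fewer cells of a type and less RNA per cell cannot be told apart.

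The test between genotypes was edgeR's quasi-likelihood test over all 16450 genes, with Benjamini-Hochberg adjustment. It called 0 transporters, where it called 0% of all genes lower and 0.00608% higher in ATF4 BKO mice (1 gene, Cacna1i, named after its values were seen). At an unadjusted p under 0.05, it found 3 transporters, Slc6a9, Slc1a4 and Slc38a3, all lower in ATF4 BKO mice, against 3.42% of genes lower and 1.81% higher. DESeq2, the tool the study names, called 1 transporter on the same counts, Slc6a9, against 0.608% of all genes lower and 0.128% higher. It had 3 transporters at an unadjusted p under 0.05, against 953 of the 16450 genes in either direction. The log2 fold changes were below 0 for 5 transporters and above 0 for 5, of which Slc1a3, Slc1a5 and Slc38a10, all within 0.1 of 0, lay below 0 when library totals or TPM replaced the TMM factors. Those scalings moved the median of all genes to between -0.17 and -0.099. Their median was -0.11, beside 0.0077 over all genes, of which 48.8% were below 0.

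**Figure D2:**
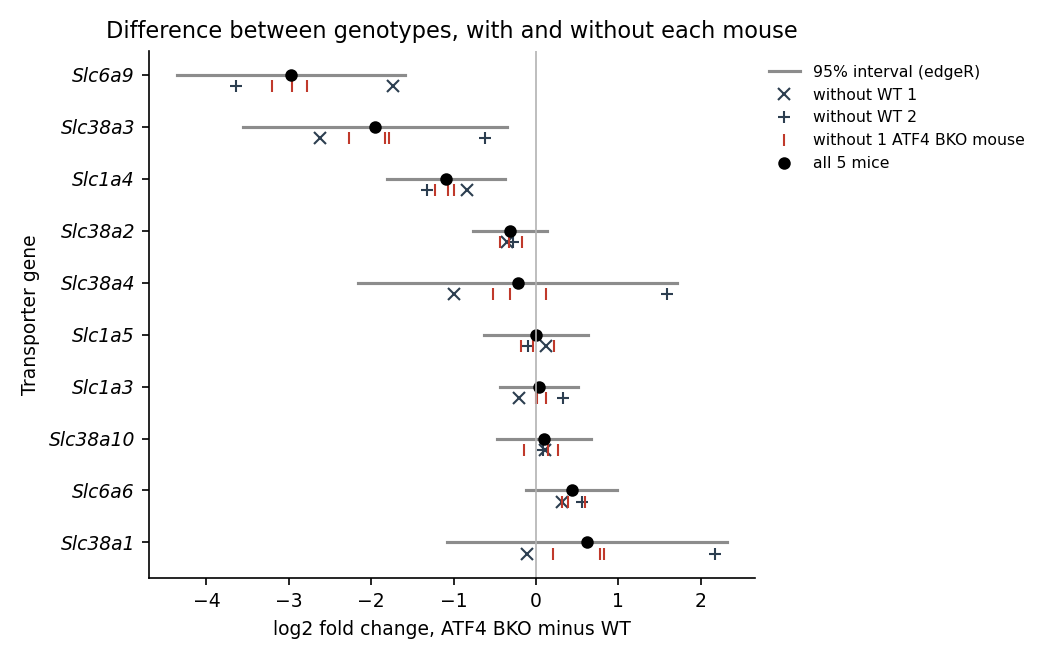
Log2 fold change of each transporter, ATF4 BKO minus WT, with its 95% interval from edgeR (lines) and the value after leaving out each mouse in turn (crosses, plus signs and red ticks). The interval lies below 0 for Slc6a9, Slc38a3 and Slc1a4, and the values without 1 of the WT mice lie far apart for Slc6a9, Slc38a1, Slc38a3 and Slc38a4.

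The sequences that matter for Slc6a9 are those at the start of its coding region, since the gene's transcripts begin at different first exons. Slc6a9 (ENSMUSG00000028542.17) lies at chr4:117834506-117875198 on the plus strand of GRCm38 and encodes a sodium- and chloride-dependent carrier that removes glycine from the space around cells. In the GENCODE M21 transcripts, Slc6a9-201, Slc6a9-202 and Slc6a9-207 share 1 coding start, at chr4:117843106-117843135, and Slc6a9-204 and Slc6a9-211 share another, at chr4:117849422-117849466. Slc6a9-208 has only the first coding bases of the upstream start, at chr4:117843106-117843109. Slc6a9-203, Slc6a9-209 and Slc6a9-210 have other annotated coding starts, which are not shown. The coding bases of the first coding exon are shown for the shared starts, with the start codon in capitals.
Slc6a9-201, Slc6a9-202 and Slc6a9-207: ATGgtaggaaaaggtgccaaagggatgttg
Slc6a9-204 and Slc6a9-211: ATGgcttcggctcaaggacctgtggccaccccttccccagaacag

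Nearly all Slc6a9 counts went to transcripts with the upstream coding start. For the protein-coding Slc6a9-202, the estimated counts were 14, 48.6 and 66.6 in ATF4 BKO replicates 1, 2 and 3, against 714.5 and 191.9 in WT replicates 1 and 2. Slc6a9-201, which has another 5′ exon but the same coding start, had 19.7, 28.8 and 0 counts in the ATF4 BKO mice against 181.4 and 46.7 in the WT mice. Both transcripts lay lower in every ATF4 BKO mouse, and so did the third transcript tested, Slc6a9-207, annotated as a target of nonsense-mediated decay, with 2.5, 3.3 and 0 counts against 12.4 and 22.8. Such separation was seen for 10.8% of the 44452 transcripts tested. Slc6a9-204, Slc6a9-211 and Slc6a9-209, whose coding region begins in the same downstream exon, had few counts, with 3.9 on Slc6a9-204 in WT replicate 1 and 1.6 on Slc6a9-209 in ATF4 BKO replicate 3. Of the 12 transcripts, 5 had estimated counts that rounded to 0 in every mouse.

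**Figure D3:**
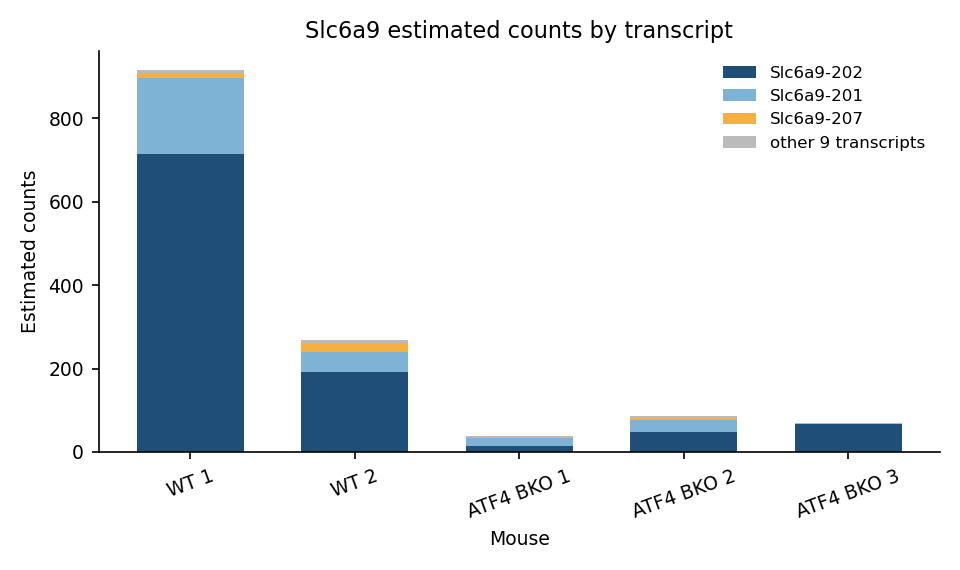
Estimated counts of Slc6a9 in each mouse, stacked by transcript. Slc6a9-202 holds 714.5 of the counts in WT replicate 1 and 191.9 in WT replicate 2, and the bars of the ATF4 BKO mice are all shorter than either.

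The share of Slc6a9 counts on Slc6a9-202 was 78.0% and 71.5% in WT mice and varied from 37.6% to 96.2% among ATF4 BKO mice, at totals of 37 to 86 counts. The split between the 2 main transcripts was thus not resolved at this depth. Per transcript, the log2 fold changes were -3.21 (SE 0.78) for Slc6a9-202, -2.49 (SE 1.48) for Slc6a9-201 and -2.98 (SE 1.21) for Slc6a9-207. With edgeR, 0 of the 37 transporter transcripts tested were called, against 0% of all transcripts lower, and 1, Slc6a9-202, had an unadjusted p under 0.05, against 2.41% lower. DESeq2 called Slc6a9-202 alone among them (adjusted p = 0.017), against 0.526% of all transcripts lower. On simulated transcripts, described below, DESeq2 made 52 false calls, so this call says little by itself.

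Over the whole gene, Slc6a9 had 2.34 ± 0.71 CPM in ATF4 BKO mice (SD, n = 3) and 18.4 ± 14.9 in WT mice (SD, n = 2), so the WT mice differed by 3.67 times between themselves. Its log2 fold change was -2.97 (SE 0.57, 95% interval -4.36 to -1.58), which is 0.128 of the WT level. The edgeR adjusted p was 0.701 and the unadjusted p 0.0019, and DESeq2 gave an adjusted p of 0.00015. Only 0.541% of all genes tested had a log2 fold change as low or lower. The 2 prefixes gave -3.65 and -1.74, and a fit with the muscle markers as a covariate gave -4.17, also without a call by edgeR (adjusted p = 0.079).

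WT replicate 1, the mouse with the most Slc6a9, was also the mouse in which all 4 erythroid markers were highest, and the part of erythroid RNA was not tested. Without it the log2 fold change of Slc6a9 was -1.74, and DESeq2 did not call the gene (adjusted p = 0.117). With 1 WT mouse left, the spread comes from the ATF4 BKO mice alone and that of WT mice is assumed to be the same, so a call gained or lost in this way says little. Without WT replicate 2 the log2 fold change was -3.64, and without any one ATF4 BKO mouse it lay between -3.20 and -2.77, with the DESeq2 call kept (highest adjusted p = 0.0029). Without ATF4 BKO replicate 1, the library with Xist, it was -2.77 (DESeq2 adjusted p = 0.0024).

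Reads of Slc6a9 can overlap those of neighbours on the other strand. Of its 5266 distinct words of 31 bases, 28.4% also occur in transcripts of other genes, 1372 of them in Ccdc24, which is read from the opposite strand, and the share was 43.7% for Slc6a9-202. Ccdc24 had 1.9, 2.9 and 3.3 counts in the ATF4 BKO mice against 16.1 and 14.4 in the WT mice, and B4galt2, which also overlaps, had 51.5 to 90.4 in all 5 mice. The libraries were stranded, but the strand setting of the counting is not given in the sources used here, so the share of Slc6a9 counts that belongs to Ccdc24 was not tested.

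The genes whose pattern over the 5 mice was nearest to that of Slc6a9 were Phgdh, Lcn2 and Gm12347, by the root mean square distance between centred log2 CPM values (0.34, 0.36 and 0.36, against a median of 1.497 over 16449 genes). Phgdh, the first enzyme of serine synthesis, had 3.05, 6.58 and 2.49 CPM in the ATF4 BKO mice against 43.0 and 13.7 in the WT mice. Lcn2, which encodes the secreted protein lipocalin 2, had 2.08, 4.38 and 3.43 CPM against 32.6 and 5.81. Gm12347 was near the limit of detection, at 0.13 to 0.21 CPM against 1.90 and 0.38. Among the other transporters, Slc1a4 came nearest, at a distance of 1.01.

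Slc1a4 (ENSMUSG00000020142.12, chr11:20302180-20332713, minus strand) encodes an exchanger of alanine, serine, cysteine and threonine. It had 1.72, 1.28 and 1.41 CPM in the ATF4 BKO mice against 3.64 and 2.66 in the WT mice, from 36 to 42 counts against 115 and 90. The log2 fold change was -1.10 (SE 0.29, 95% interval -1.81 to -0.38), with an adjusted p of 0.794 from edgeR (unadjusted p = 0.0094) and of 0.327 from DESeq2. Leaving out each mouse gave -1.32 to -0.84, and the prefixes gave -1.25 and -0.88. By transcript, the counts of Slc1a4 went wholly to Slc1a4-202 in ATF4 BKO replicate 1 and to Slc1a4-201 in the others, and the annotated starts of these transcripts lie 29 bases apart.

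The ATF response core TGATGNAA was searched on both strands of RefSeq promoter windows of 300 bases (250 before to 50 after the start, GRCm38.p6), and no other motif was searched beside a stricter form of it. It occurred in 1304 of 32851 windows, or 3.97%. The 10 windows of 6 transporters held 1 match, in Slc1a4. The windows of Slc1a5, Slc6a6, Slc38a1 and Slc38a3 were not analysed here. The match, at chr11:20332710-20332717, reads TGATGCAA on the strand opposite the gene and runs from 4 bases before the RefSeq start to base 4 of the transcript. The 120 bases at chr11:20332710-20332829 are given along the minus strand, 5′ to 3′, with the match in capitals, because this is the promoter of a transporter whose genotypes did not overlap.
Slc1a4: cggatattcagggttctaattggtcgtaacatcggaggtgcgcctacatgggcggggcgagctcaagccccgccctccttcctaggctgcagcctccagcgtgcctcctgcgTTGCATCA
A match of these letters is a description and was not tested as a site.

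The other SLC1 members were abundant and overlapped between genotypes. Slc1a5 (ENSMUSG00000001918.17, chr7:16781340-16798274, plus strand), which encodes the exchanger through which many cells take up glutamine, had 449, 299 and 534 CPM in the ATF4 BKO mice against 456 and 397 in the WT mice. Its log2 fold change was 0.0035 (SE 0.26), with a 95% interval from -0.63 to 0.64. Between 78.7% and 81.8% of its counts lay on Slc1a5-202, annotated as a transcript with a retained intron, and 9.45% to 12.2% on protein-coding transcripts. The protein-coding Slc1a5-201 alone had 46.1, 32.9 and 50.3 CPM against 56.1 and 46.4, a log2 fold change of -0.25 (SE 0.22), so the genotypes overlapped there too.

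Slc1a3 (ENSMUSG00000005360.14, chr15:8634124-8710764, minus strand) encodes the glutamate and aspartate carrier GLAST, best known from astrocytes. It had 48.4, 42.4 and 48.2 CPM in ATF4 BKO mice, all within the range of the WT mice at 36.5 and 53.9. The difference on the log2 scale was 0.036 (SE 0.19, 95% interval -0.43 to 0.51), and 94.4% to 95.3% of the counts were on Slc1a3-201.

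The taurine carrier Slc6a6 (ENSMUSG00000030096.8, chr6:91684053-91759066, plus strand) had the second highest level per length of the 10, with all transcripts of each gene summed. It had 275, 431 and 385 CPM in the ATF4 BKO mice against 244 and 294 in the WT mice, so ATF4 BKO replicate 1 lay between the WT mice and the other 2 lay above both. The log2 fold change was 0.43 (SE 0.23, 95% interval -0.12 to 0.99), with an adjusted p of 0.911 from edgeR, and leaving out each mouse gave 0.31 to 0.60. At least 97.0% of its counts in each mouse were on the protein-coding Slc6a6-201.

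Of the system A genes, Slc38a2, Slc38a1 and Slc38a4 lie next to one another on chromosome 15, 16.3 Mb from Atf4. Slc38a2 (ENSMUSG00000022462.7, chr15:96687392-96699730, minus strand) encodes the carrier that amino acid shortage induces in many cell types. It had 80.6, 105.0 and 118.2 CPM in the ATF4 BKO mice against 122.0 and 129.9 in the WT mice. The genotypes did not overlap, but the gap between ATF4 BKO replicate 3 and WT replicate 1 was small beside the spread of the ATF4 BKO mice. The log2 fold change was -0.31 (SE 0.18, 95% interval -0.76 to 0.13, adjusted p = 0.916 from edgeR), and leaving out single mice gave -0.44 to -0.17. When protein-coding transcripts alone were summed over all genes, Slc38a2 was no longer among the transporters below both WT mice in every ATF4 BKO mouse. Its protein-coding transcript Slc38a2-201, scaled with all transcripts, had 78.6, 99.0 and 113.5 CPM in the ATF4 BKO mice against 120.4 and 124.1. Whether the genotypes overlapped thus depended on the scaling.

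Slc38a1 (ENSMUSG00000023169.15, chr15:96571418-96642913, minus strand), which encodes another system A carrier, had 5.39, 10.6 and 4.92 CPM in ATF4 BKO mice, between the WT values of 1.52 and 7.55 except in ATF4 BKO replicate 2. The WT mice differed by 4.97 times, so the log2 fold change of 0.62 (SE 0.70) had an interval from -1.08 to 2.32. It was -0.11 without WT replicate 1 and 2.18 without WT replicate 2. DESeq2 called it in the latter case, where 1 WT mouse is left and the ATF4 BKO mice alone supply the spread, so the call says little. Given the muscle marker level as a covariate, edgeR gave a log2 fold change of 3.68 and called it (adjusted p = 0.026). That fit called 225 of 16450 genes, 217 of them higher in ATF4 BKO mice. Its covariate separates the genotypes, so the parts of the 2 can hardly be told apart. The mice lay in the same order for Slc38a1 as for the summed CPM of the 8 macrophage markers, and the part of macrophage RNA in this result was not tested. The protein-coding Slc38a1-202 had 55.6, 260.7 and 38.0 counts in the ATF4 BKO mice against 2.9 and 131.1 in the WT mice.

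**Figure D4:**
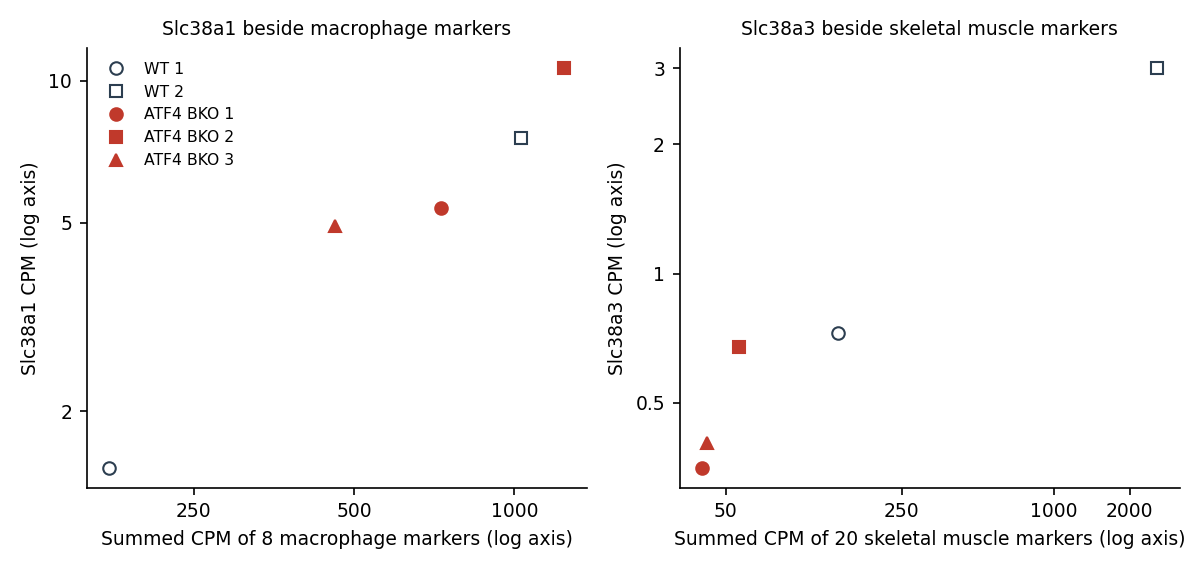
Left, CPM of Slc38a1 against the summed CPM of 8 macrophage markers, and right, CPM of Slc38a3 against the summed CPM of 20 skeletal muscle markers, 1 point per mouse, all axes logarithmic. The mice lie in 1 order on both axes of each plot, with WT replicate 1 at 174 CPM of macrophage markers and WT replicate 2 at 2571 CPM of muscle markers. Most of the muscle sum in ATF4 BKO replicates 1 and 3 is Myl1, at 32.4 and 37.3 CPM.

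Slc38a4 (ENSMUSG00000022464.14, chr15:96994820-97055956, minus strand), a system A carrier best known from liver, had 10 to 66 counts per mouse. It had 1.10, 1.35 and 0.47 CPM in ATF4 BKO mice, all between the WT values of 0.32 and 1.95. Its log2 fold change was -0.22 (SE 0.79), with an interval from -2.16 to 1.72, and it turned from -0.99 without WT replicate 1 to 1.59 without WT replicate 2. The difference was smaller than the spread between the WT mice, which lay 6.15 times apart.

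Slc38a3 (ENSMUSG00000010064.15, chr9:107650634-107669530, minus strand) encodes a system N carrier of glutamine, histidine and asparagine. It had 0.35, 0.68 and 0.40 CPM in the ATF4 BKO mice against 0.73 and 3.01 in the WT mice, from 8, 19 and 12 counts against 23 and 102. WT replicate 1 lay just above ATF4 BKO replicate 2, and WT replicate 2 stood apart. The log2 fold change was -1.95 (SE 0.66, 95% interval -3.55 to -0.35), with an adjusted p of 0.911 from edgeR (unadjusted p = 0.024) and of 0.548 from DESeq2. It was -0.61 without WT replicate 2 and 0.67 once the muscle marker level entered the fit as a covariate. Genotype and that level can hardly be told apart, as both WT mice lay above every ATF4 BKO mouse in it. The mice lay in the same order for Slc38a3 as for the summed skeletal muscle markers. Of that sum, Myl1 alone gave 32.4 of 40.4 CPM in ATF4 BKO replicate 1 and 37.3 of 42.2 in ATF4 BKO replicate 3. By the mean log2 CPM of the markers, used as the covariate, ATF4 BKO replicate 3 (-1.72) lay below ATF4 BKO replicate 1 (-1.24), unlike for Slc38a3. Of the Slc38a3 counts in WT replicate 2, 62.8% were on Slc38a3-209. That transcript held at most 1.45% of the counts of any other mouse. The part of muscle RNA in this result was not tested.

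Slc38a10 (ENSMUSG00000061306.16, chr11:120103960-120151346, minus strand), a less studied member of the family, was expressed at 140, 82.1 and 98.1 CPM in the ATF4 BKO mice against 99.5 and 100.4 in the WT mice. On the log2 scale the difference was 0.093 (SE 0.23, 95% interval -0.48 to 0.67). Of its words of 31 bases, 5.29% also occur in other genes, mostly in Gm11769. Between 83.3% and 87.3% of its counts were on Slc38a10-216.

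Levels of different transporters were compared per transcript length, as TPM, which divides counts by length before scaling them to the library. All transcripts of a gene were summed, whether protein-coding or not. In WT mice, Slc1a5 was highest at 292 ± 11.6 TPM (SD, n = 2), followed by Slc6a6 at 68.7 ± 11.8, Slc38a10 at 41.7 ± 0.65, Slc38a2 at 34.8 ± 2.55 and Slc1a3 at 15.1 ± 4.197, and no neighbours in this order overlapped. Slc6a9 came next at 7.98 ± 5.84 TPM, from 3.85 to 12.1, below Slc1a3 and above the other 4 in both WT mice, although in WT replicate 1 it was nearly level with Slc1a3 (12.11 against 12.14). Slc38a3, Slc1a4, Slc38a1 and Slc38a4, at means of 1.29, 1.06, 0.96 and 0.48 TPM, overlapped with their neighbours and have no order here. Most of the Slc1a5 level lay on transcripts that are not protein-coding. The protein-coding Slc1a5-201 had 26.3 and 22.9 TPM in WT replicates 1 and 2. That was below Slc6a6-201 (48.1 and 61.1) and Slc38a2-201 (32.4 and 35.3), so the order differed among protein-coding transcripts.

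In ATF4 BKO mice the first 5 kept this order without overlap, at 262 ± 60.4 TPM (SD, n = 3) for Slc1a5, 82.8 ± 22.7 for Slc6a6, 38.2 ± 7.03 for Slc38a10, 24.7 ± 5.37 for Slc38a2 and 13.6 ± 0.21 for Slc1a3. Slc6a9, at 1.07 ± 0.53 TPM, lay among the lowest 5, whose neighbours overlapped. In TPM, ATF4 BKO replicate 1 had more Slc38a3 (0.64) than WT replicate 1 (0.39), so on this scale 3 transporters, Slc6a9, Slc1a4 and Slc38a2, lay lower in every ATF4 BKO mouse, while the share over all genes was 24.9%. Summed over the 10 transporters, CPM was 1003, 976 and 1192 in the ATF4 BKO mice against 993 and 997 in the WT mice.

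**Figure D5:**
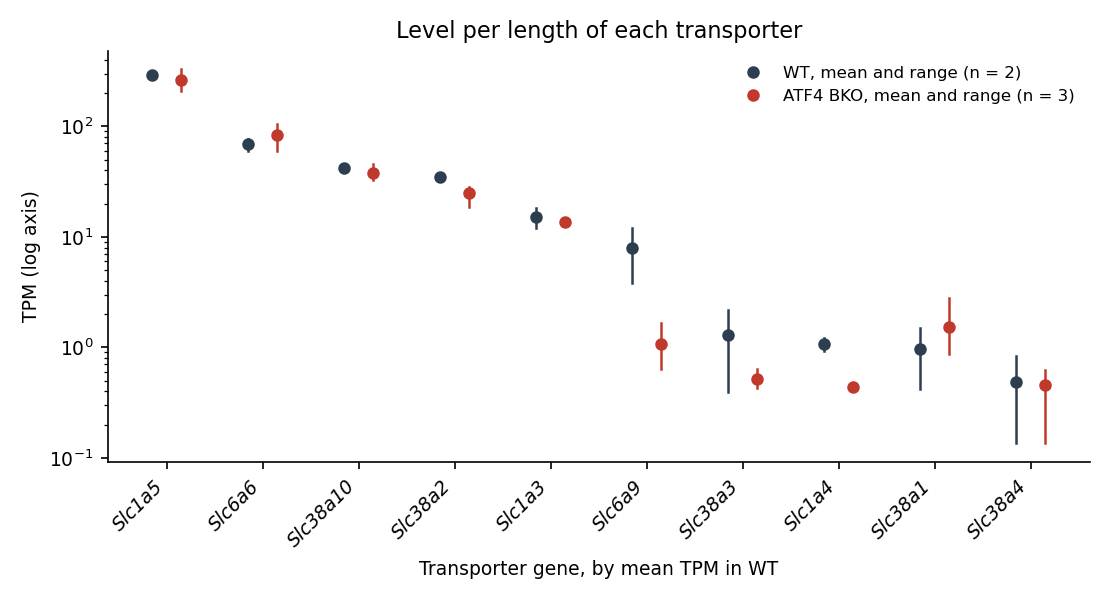
Mean TPM (log axis) of each transporter, summed over all its transcripts, in WT and ATF4 BKO mice, with lines from the lowest to the highest mouse. Slc1a5, Slc6a6, Slc38a10, Slc38a2 and Slc1a3 keep 1 order in both genotypes, and Slc6a9 lies at 7.98 in WT mice and 1.07 in ATF4 BKO mice.

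Without ATF4 BKO replicate 1, whose Xist count goes against its label, 5 transporters lay lower in every ATF4 BKO mouse, Slc38a10 being added, against 16.4% of all genes, and Slc6a6 lay higher in the 2 that remained, against 16.4%. Without WT replicate 1, the log2 fold changes had a median of -0.27 and 6 transporters lay lower in every ATF4 BKO mouse, Slc1a3 and Slc38a4 being added, against 18.5% of all genes. Without WT replicate 2 the median was -0.0066, and 4 lay lower and 4 higher (the latter Slc1a3, Slc6a6, Slc38a1 and Slc38a4) in every ATF4 BKO mouse, against 30.7% and 27.1% of all genes. Slc6a9, Slc1a4, Slc38a2 and Slc38a3 were among those lower in each of these cases.

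The other members of the same families were examined as a list of 28 genes, of which 11 passed the count filter. Their median log2 fold change was -0.24, with 9 below 0 and 2 above. Every member overlapped between genotypes, where 10.6% of all genes had the ATF4 BKO mice wholly below the WT mice and 8.95% wholly above. Calls by edgeR and DESeq2 numbered 0 of the 11, where DESeq2 called 0.608% of all genes lower and 0.128% higher. At an unadjusted edgeR p under 0.05 there were 0, against 3.42% of all genes lower and 1.81% higher. With 11 genes, counts of 0 are not far from these shares and say little. The median was 0.15 without WT replicate 1 and -0.55 without WT replicate 2.

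The sodium pump, which maintains the gradient that drives these carriers, was represented by 9 tested genes of 10. Their median log2 fold change was 0.011, and edgeR and DESeq2 called 0, where DESeq2 called 0.608% of all genes lower and 0.128% higher. None had an unadjusted edgeR p under 0.05, against 3.42% of all genes lower and 1.81% higher. All 9 overlapped between genotypes, where 10.6% of all genes lay wholly below the WT mice and 8.95% wholly above. With 9 genes, counts of 0 say little here too.

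Of 10 genes of glycine and serine metabolism, all tested, 4 lay lower in every ATF4 BKO mouse (Phgdh, Psat1, Shmt2 and Gcsh) and 0 higher, against 10.6% and 8.95% of all genes, with a median log2 fold change of -0.32. DESeq2 called 2 of them, both lower, against 0.608% of all genes. With edgeR, 0 were called and 3 lower genes, the third being Shmt2, had an unadjusted p under 0.05, against 3.42%. Shmt2, Gcsh and the genes of the next lists that are named without CPM values were named after their values were seen. Phgdh, given above, had a log2 fold change of -2.81 (SE 0.60, DESeq2 adjusted p = 0.00074). Psat1, the next enzyme of serine synthesis, had 6.27, 11.4 and 4.65 CPM in the ATF4 BKO mice against 62.7 and 15.9 in the WT mice, with a log2 fold change of -2.40 (SE 0.62, DESeq2 adjusted p = 0.014). As for Slc6a9, WT replicate 1 was far above WT replicate 2, and without it the log2 fold changes were -1.75 for Phgdh and -1.09 for Psat1.

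Of 9 tested genes of glutamine and glutamate metabolism, 2 lay below both WT mice in every ATF4 BKO mouse and 1 lay above them (Got1 and Got2, and Glul), against 10.6% and 8.95% of all genes. Both tests called 0, with 1 lower gene at an unadjusted edgeR p under 0.05, against 3.42%. Got2, the mitochondrial aspartate aminotransferase, had 49.2, 54.1 and 51.1 CPM in the ATF4 BKO mice against 140.3 and 66.7 in the WT mice. Its log2 fold change was -1.01 (SE 0.30, DESeq2 adjusted p = 0.201), and -0.36 without WT replicate 1. The 3 tested genes of taurine synthesis had a median log2 fold change of 0.40 with 1 (Csad) higher in every ATF4 BKO mouse, against 8.95% of all genes, and both tests called 0, with 0 at an unadjusted edgeR p under 0.05.

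Of 5 genes for exchangers and partner proteins that work beside these carriers, 1 lay lower in every ATF4 BKO mouse, against 10.6% of all genes. This was Slc7a5, the exchanger that trades intracellular glutamine for leucine, with 1.72, 5.23 and 1.62 CPM in the ATF4 BKO mice against 15.6 and 7.55 in the WT mice. Its log2 fold change was -2.01 (SE 0.60, DESeq2 adjusted p = 0.094). Both tests called 0 of the 5, with Slc7a5 and Slc7a11, both lower, at an unadjusted edgeR p under 0.05, against 3.42%.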

How the data were processed

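BAT RNA of 3 ATF4 BKO and 2 WT mice was analysed. The authors made stranded mRNA libraries and deposited, per mouse, estimated counts per transcript and TPM from Kallisto 0.45.0 (mm10, per the labels). The estimated counts were not normalized between mice. The annotation and strand setting are not given in the sources used here, and the paper's count workflow was not analysed here. Of 141450 transcripts, 138191 matched GENCODE M21, and those without a match held 1.16% to 1.29% of the counts. Counts were summed per gene and rounded. Genes and transcripts reaching 10 counts in 2 or more mice were tested with edgeR 4.0.16 (TMM, quasi-likelihood, genotype as the sole term) in R 4.3.3 and adjusted after Benjamini-Hochberg, with calls at an adjusted p under 0.05. DESeq2 1.42.0, limma 3.58.1 on log2(TPM + 1) and log2(TPM + 0.1), other scalings and filters, blocks and a muscle covariate were alternatives.

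The p-values measure the spread between mice, 1 library each. No library repeated another, since the chi-square per degree of freedom was 52.9 or more for each pair. Estimated counts depend on how Kallisto split reads between transcripts and overlapping genes, and counting error alone is large for genes with few counts. On counts simulated with the same spread for all genes, edgeR recovered 91 of 95 genes changed by 2 on the log2 scale. It recovered 105 of 105 changed by 3, with 6 false calls among 16131 genes. The changed genes left out those with the lowest counts. In the data the spread differs between genes, and edgeR did not call the deleted Atf4, so this recovery does not carry over to the transporters. For transcripts it recovered 0 of 84 and 15 of 113. An edgeR count of 0 thus says little for genes or for transcripts.

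The transporters and gene lists were chosen with earlier results of these data known. Named genes are the 10 transporters, Atf4, the tested Slc6a9 transcripts, list genes that a test called or that did not overlap at a log2 fold change of at least 1 in size, and the 3 genes nearest to Slc6a9. Sequences are from GENCODE M21 and RefSeq.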

Additional observations from a re-analysis of the deposited data

Results flagged for a closer look

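A signal appeared outside the comparisons. ATF4 BKO replicate 1, labelled male, had 4598 counts of Xist, while the other ATF4 BKO mice had 0 and 1 and the WT mice 7 and 2. Without this library the log2 fold change of Slc6a9 was -2.77 and that of Slc1a4 was -1.22, beside -2.97 and -1.10 with it. No group had the 4 samples needed to look for a single mouse far from the others of its group.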

How the results depend on the processing

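With 2 WT mice, 1 pair sets the WT spread, and genes with few counts are limited by depth. Over all alternatives, Slc6a9, Slc1a4, Slc38a2 and Slc6a6 kept the sign of their log2 fold changes, and 4 transporters lay lower in every ATF4 BKO mouse (3 to 6 over the alternatives). The count of genes called, 1 with edgeR, was 121 with DESeq2, 2 with limma on log2(TPM + 0.1), 0 on log2(TPM + 1), 225 with the muscle covariate (8 lower, 217 higher), 8 without a filter, 0 with the prefix block and 0 to 23 without 1 mouse. DESeq2 gave a log2 fold change of -2.98 and a call for Slc6a9, and of -2.83 and a call for Atf4, and leaving out the filter gave -2.82 and a call for Atf4. Without 1 mouse, edgeR gave -3.64 to -1.74 for Slc6a9 and -3.18 to -2.58 for Atf4. DESeq2 without 1 mouse, chosen after seeing the data, called 56 to 531 genes, with log2 fold changes of -3.63 to -1.75 for Slc6a9 (called except without WT replicate 1, where 1 WT mouse is left and the ATF4 BKO mice alone give the spread) and of -3.18 to -2.59 for Atf4 (called each time). The median of the transporters was 0.18 with the muscle covariate and -0.27 to -0.0066 without 1 mouse, and that of the other family members -0.41 with the covariate and -0.55 to 0.15 without 1 mouse. Between 0 and 4 transporters lay higher in every ATF4 BKO mouse without 1 mouse. A stricter core with C as its sixth letter occurred in 0.895% of promoters.

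Signs turned as follows, and the cause was not tested. With library totals alone, the log2 fold changes were -0.078 for Slc1a3, -0.11 for Slc1a5 and -0.027 for Slc38a10. On log2(TPM + 0.1) they were -0.12, -0.18 and -0.14, with 0.078 for Slc38a4, and on log2(TPM + 1) -0.12, -0.18 and -0.14. The muscle covariate, which separates the genotypes, gave -4.17 for Slc6a9, whose sign did not turn. It gave -0.62 for Slc1a5, -0.13 for Slc38a10, 0.67 for Slc38a3 and 3.19 for Slc38a4. Protein-coding transcripts alone gave -0.19 for Slc1a5, and the prefix block 0.039 for Slc38a4. Without 1 mouse, Slc1a3 lay between -0.20 and 0.33, Slc1a5 between -0.19 and 0.22, Slc38a1 between -0.11 and 2.18, Slc38a4 between -0.99 and 1.59, and Slc38a10 between -0.15 and 0.27.

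ATF4 BKO and WT replicates 1 and 2 share only a number: their deviations correlated at 0.047 and 0.20, over 2 pairs. The replicate block, fitted without ATF4 BKO replicate 3 and with 1 residual degree of freedom, called 0 genes (697 at an unadjusted p under 0.05) and gave -0.21 for Slc1a5 and 0.48 for Slc38a4.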
